A study of Solanum lycopersicum with 12 samples.

Results

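The light-harvesting antenna of tomato was followed as 32 listed loci for chlorophyll a/b binding proteins of both photosystems and for PsbS, taken from a list of locus IDs whose rule uses no measured value. Of these, 30 were among the 34075 genes of the count table, 29 had counts and all 29 passed the filter on low counts, as did 22157 genes in all. Solyc03g005790 and Solyc05g056070 were not analysed here. Leaf RNA of the cultivar Micro Tom was sequenced 48 h after the stimuli in 12 libraries, 3 per group. In the ultrasound group (US), plants received ultrasound of 30 kHz and 120 W through air for 5 min, with the head at an average distance of 6 cm. In the drought group (D), each plant was watered with 10 ml of 20% polyethylene glycol 6000, so that drought stands for an osmotic stimulus given at the roots and not for withheld water. In the combined group (US + D), the same ultrasound was followed at once by the same polyethylene glycol. The control group (C) was untreated. The question was whether either stimulus, or their combination, changed the transcripts of the antenna proteins.

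Chlorophyll a/b binding proteins sit in the thylakoid membrane of the chloroplast, where they hold chlorophyll and carotenoids and pass the absorbed light energy to the reaction centres. Their products surround photosystem II (Lhcb proteins) and photosystem I (Lhca proteins), and PsbS, a relative that serves in the dissipation of excess light energy as heat, belongs to the same protein family. They are encoded in the nucleus by many related genes, rank among the most abundant transcripts of green leaves, and are known for their response to light, to the circadian clock and to the state of the chloroplast.

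The loci lay on 10 chromosomes, and 15 of those in the table stood in 4 clusters in the SL4.0 genome. The largest held 8 loci on chromosome 2 (38517238 to 38540816, 23.6 kb), each with a genomic span of 798 bases. A group of 3 loci lay on chromosome 3 (542669 to 548836, 6.2 kb), a pair on chromosome 1 (85633660 to 85640691, 7.0 kb) and another pair on chromosome 8 (54487631 to 54488259, 0.6 kb), whose short loci of 276 and 297 bases were 56 bases apart. The sources used here do not say which locus encodes which Lhcb, Lhca or PsbS protein, so members are named by ID and ordered by position. The table gives the whole span of each gene and not its exons. How reads that match several near-identical copies were counted is not given in the sources used here, so the split of counts among neighbours in a cluster is uncertain.

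The family held a large part of each library. That part differed more between libraries of a group than between the group means, which average 3 libraries each. The members took 6.88%, 4.93% and 7.24% of all counts in the US libraries, 6.09%, 7.53% and 7.46% in the D libraries, 4.01%, 10.02% and 6.49% in the US + D libraries and 7.09%, 9.30% and 4.14% in the C libraries. The lowest and the highest share were thus in the same group, US + D, and the C libraries spanned nearly as wide a range. The group means were 6.35% ± 1.25 in US, 7.03% ± 0.808 in D, 6.84% ± 3.02 in US + D and 6.84% ± 2.58 in C (SD, n = 3 each). The highest share was 1.47 times the lowest in US and 1.24 times in D, against 2.5 times in US + D and 2.24 times in C. Library totals lay between 36766633 and 42940503 counts in US, between 37905900 and 41748213 in D, between 33640280 and 87164190 in US + D and between 44837873 and 106829565 in C. The deepest libraries, C 2, C 3 and US + D 3, had shares of 9.30%, 4.14% and 6.49%. They belong to the groups with the wider ranges of share, and a link between depth and share was not tested. In RNA of whole leaves, fewer cells of a type and less RNA per cell cannot be told apart.

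**Figure D1:**
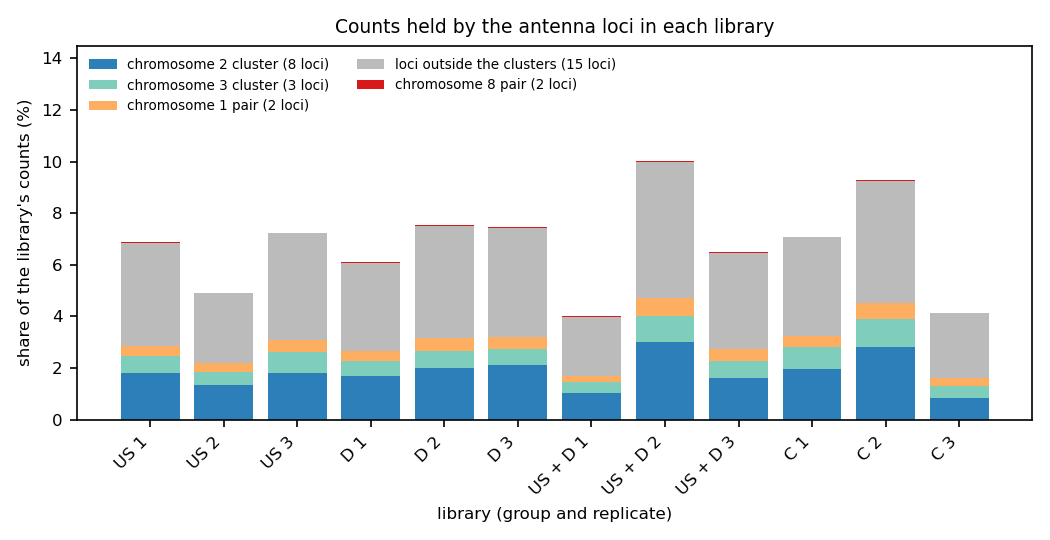
Share of each library's counts held by the antenna loci (percent, y axis), 1 bar per library, with the libraries in the order US, D, US + D and C (x axis) and the bars divided by position cluster. US + D holds both the lowest (4.01%) and the highest (10.02%) bar, and the bars of the 4 groups overlap.

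Levels are given in CPM, the count of a locus relative to a library total that was scaled by the TMM method of edgeR, which follows the length of a locus as well as its transcript level. CPM values of loci of unequal span thus rank reads and not transcripts, and an order of levels is given only for loci of equal span. By mean CPM over the 12 libraries, 22 of the 29 members were above 1000 CPM and 28 were above 100 CPM. Of the 50 genes with the highest mean CPM in the whole table, 16 were antenna loci. Solyc07g047850 (chromosome 7, 58968737 to 58969849, minus strand) had the most reads of the members outside the clusters, with 5451, 4677 and 6842 CPM under US, 5344, 6788 and 6436 CPM under D, 3155, 7903 and 5378 CPM under US + D and 5340, 6821 and 4343 CPM under C. Its US + D libraries enclosed all the others, and the 4 group means lay within 1.13-fold of each other. At the other end, Solyc06g069000 (chromosome 6, 40449668 to 40452027, plus strand) was the only member with a mean under 100 CPM and ranged between 0.304 CPM in the C 3 library and 9.42 CPM in the US + D 2 library.

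The members moved together from library to library. US + D 2 had the highest level of 26 of the 29 members, and D 2 that of the other 3, Solyc06g060340, Solyc08g067320 and Solyc08g067330. The lowest level was in C 3 for 15 members and in US + D 1 for the other 14. Relative to each member's own mean log2 CPM, all 29 members were above it in US + D 2 (median log2 deviation 0.88) and in C 2 (0.54). None was above it in US + D 1 (-0.86), C 3 (-0.96) or US 2 (-0.46). The remaining libraries lay between, with 21 members above in US 1, 27 in US 3, 5 in D 1, 28 in D 2, 26 in D 3, 15 in US + D 3 and 20 in C 1. Across the 12 libraries, the log2 CPM of a member and of the sum of the others had a Pearson r between 0.76 (Solyc08g067320) and 0.99, with a median of 0.93, and 22 of 29 were above 0.9. These points share library preparation, depth and scaling, and the coefficients only describe these libraries. The same counts over all genes are not given here. The TMM factor was lowest in US + D 2 (0.874) and highest in US + D 1 (1.10), and a low factor raises the CPM of every gene. The unscaled share of the family was also highest in US + D 2 (10.02%) and lowest in US + D 1 (4.01%).

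**Figure D2:**
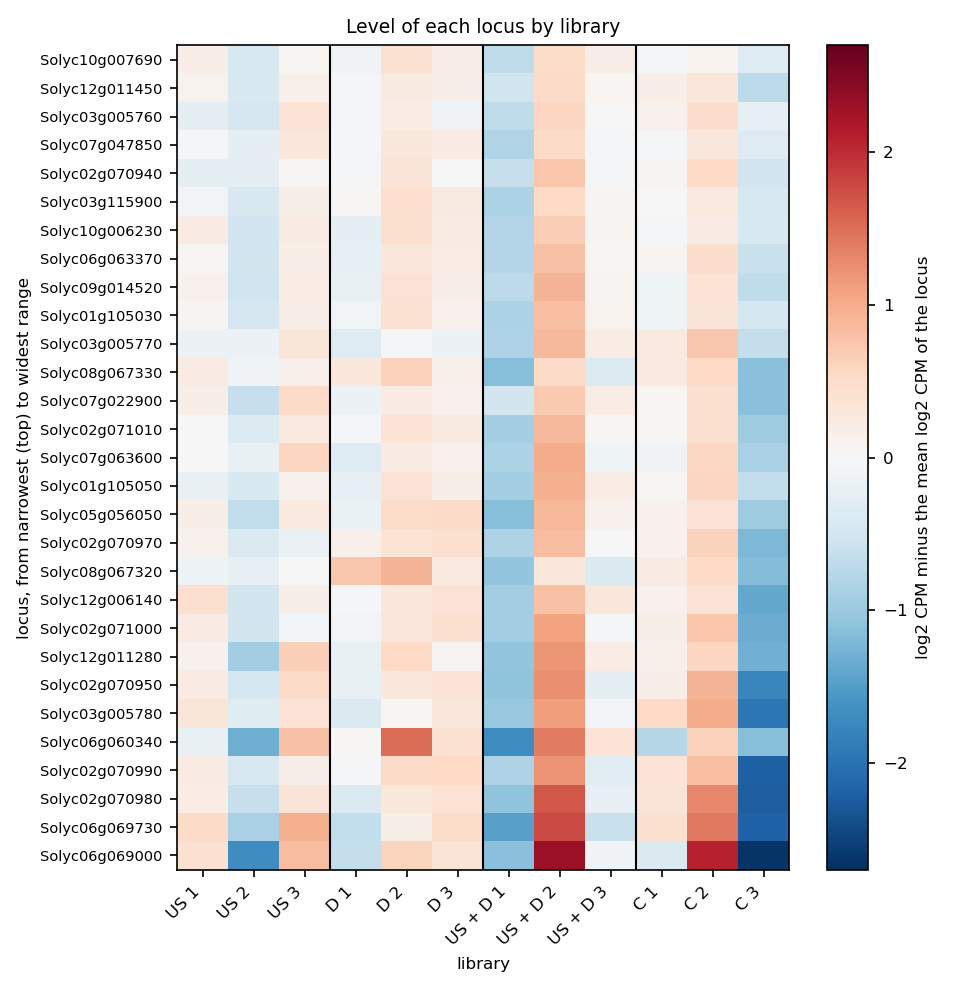
Deviation of each locus's log2 CPM from its own mean over the 12 libraries (colour, log2 units, red above and blue below), with the 29 loci down the page from the narrowest to the widest range and the libraries from left to right by group. US + D 2 and C 2 are above the mean for all 29 loci, and US + D 1, C 3 and US 2 are below it for all 29.

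For all 29 members, the largest fold between libraries of a group was above the fold between the highest and lowest group mean. Means of 3 libraries spread less than single libraries, so this order was likely beforehand. It was not computed over all genes. The group means of a member differed by a median of 1.26-fold (1.11 to 2.02), against 3.68-fold between its highest and lowest library. Within groups, the median fold between the extreme libraries was 1.65 in US, 1.44 in D, 3.30 in US + D and 2.71 in C. The biological coefficient of variation, which is edgeR's estimate of the spread between replicates beyond counting error, had a median of 0.385 over the members (0.277 to 0.890), against 0.299 over all tested genes, and 26 of 29 members were above that of all genes.

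How far the level swung differed among the members. Over the 12 libraries, 7 members ranged more than 8-fold and 7 ranged less than 3-fold. The narrowest was Solyc10g007690 (chromosome 10, 1831137 to 1833201, plus strand), at 2.26-fold, with 3777, 2482 and 3454 CPM under US, 3128, 4414 and 3767 CPM under D, 2077, 4698 and 3770 CPM under US + D and 3283, 3576 and 2615 CPM under C. Its lowest and highest libraries were the US + D replicates 1 and 2. A far wider range was seen in Solyc06g069730 (chromosome 6, 41063810 to 41065004, plus strand), at 15.6-fold, with 534, 205 and 731 CPM under US, 235, 419 and 528 CPM under D, 136.5, 1293 and 246 CPM under US + D and 507, 998 and 83.0 CPM under C. It was highest in US + D 2 and lowest in C 3, as 14 members were, and its groups overlapped. Solyc06g069000 had the widest range of the 29, at 31.0-fold, but at 25 to 868 counts per library. These 3 loci were picked after their values were seen.

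The 8 loci of equal span on chromosome 2 allow an order of levels. By mean CPM over the 12 libraries (± SD), Solyc02g071010 stood first (4376 ± 1504), before Solyc02g070940 (3914 ± 1138), Solyc02g070970 (3156 ± 1148), Solyc02g071000 (2230 ± 975), Solyc02g070950 (1854 ± 941.8), Solyc02g070990 (1680 ± 818.7) and Solyc02g070980 (1499 ± 1013). Each neighbour in this order differed from the next by less than the SD of either. The first of them had 4181, 3174 and 4981 CPM under US, 3995, 5356 and 4884 CPM under D, 2196, 7583 and 4244 CPM under US + D and 4203, 5598 and 2123 CPM under C. All US and D libraries of that locus lay between the lowest and the highest of US + D. Within a library, Solyc02g070970 was above Solyc02g071000 in 12 of 12, while Solyc02g070950 was above Solyc02g070990 in 8 of 12, and the other neighbours kept their order in 10 or 11. Solyc02g071030, at the end of the cluster, had no count in any of the 12 libraries. A bound of 0.0275 to 0.0877 CPM (3 counts, counting error only) would hold only if reads could be assigned to this locus. All 798 bases of it lie within Solyc02g071020 (38539697 to 38540891) on the opposite strand, which had 803 to 8808 counts, and whether the counting used strand is not given in the sources used here.

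The make-up of the chromosome 2 cluster differed between libraries. The cluster summed to 17862, 13019 and 18827 CPM under US, 16620, 22015 and 21146 CPM under D, 9519.5, 34625 and 16449 CPM under US + D and 18869, 27664 and 7892.3 CPM under C. Solyc02g070940, at its upstream end, had 3129, 3149 and 3840 CPM under US, 3700, 4805 and 3750 CPM under D, 2459, 6342 and 3697 CPM under US + D and 3946, 5499 and 2652 CPM under C, a range of 2.58-fold. Solyc02g070980, of the same span and picked after its values were seen, ranged 14.9-fold, with 1396, 793 and 1532 CPM under US, 925, 1477 and 1586 CPM under D, 569, 3861 and 1045 CPM under US + D and 1542, 2998 and 260 CPM under C. As a share of the cluster's counts, Solyc02g070940 took between 17.5% in US 1 and 33.6% in C 3, where the cluster was lowest. Solyc02g070980 took between 3.29% in C 3 and 11.2% in US + D 2, where the cluster was highest. Solyc02g071000 stayed between 10.1% and 13.3%. The split of counts among near-identical copies is uncertain. Library C 3 also stood apart on chromosome 3, where the spans are unequal and shares are compared only between libraries. There, Solyc03g005780 made up 9.13% of the cluster in C 3 and 19.87% to 30.64% elsewhere. Its neighbour Solyc03g005760 (542669 to 543472, minus strand) made up 62.6% in C 3 and 40.65% to 53.43% elsewhere. That locus had 2631, 2263 and 4018 CPM under US, 3038, 3579 and 2900 CPM under D, 1943, 4675 and 3076 CPM under US + D and 3377, 4298 and 2684 CPM under C, so C 3 was not its lowest library.

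**Figure D3:**
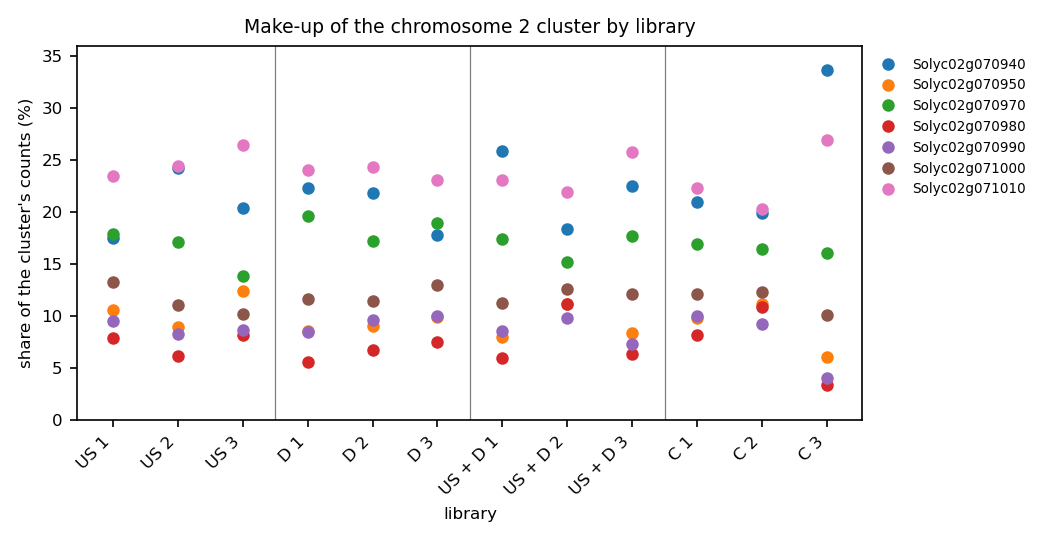
Share of the chromosome 2 cluster's counts (percent, y axis) held by each of its 7 loci with counts, 1 point per locus and library (x axis, by group). Solyc02g070940 holds its largest share, 33.6%, in C 3, and Solyc02g070980 its largest, 11.2%, in US + D 2.

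No member was a DEG in any comparison. A DEG was a gene with an adjusted p (Benjamini-Hochberg over the 22157 tested genes) under 0.05 and a log2 fold change beyond 0.58 in edgeR's quasi-likelihood test. Few genes of any kind met this rule, at most 27 of the 22157 (0.122%), in US + D vs. D. That no member met it thus does not set the antenna loci apart from other genes. DESeq2 called more genes, up to 3.33% of those it tested (US + D vs. D), and no member. Apart from the interaction, the standard errors (SE) of the members' log2 fold changes lay between 0.34 and 1.12, with a median of 0.46. The spread of a gene was estimated from all 4 groups together. The SE and intervals thus take it as equal in all groups, although US + D and C ranged wider than US and D. The comparisons share libraries with each other, so their values are given side by side.

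When US was compared to C, edgeR called 0 of 29 members and 0% of all tested genes. No member had an unadjusted p under 0.05, as did 3.84% of all genes, and DESeq2 (0.387% of all genes) and limma voom (0.00451%) also called 0 members. With edgeR, 12 members had a log2 fold change above 0, as did 47% of all genes, and 17 below it, with a median of -0.03 against -0.02 over all genes, and the smallest adjusted p was 0.9998. The libraries of US and C overlapped for all 29 members (6.26% of all genes did not overlap). Without C 3 no member was above 0 (median -0.32), without C 2 there were 28 (median 0.31), and with limma voom, which gives weights to libraries, there were 3. Of the members above 0, Solyc07g022900 (chromosome 7, 23426273 to 23428110, plus strand) had the smallest p, with 154, 88.8 and 195.5 CPM under US, 123, 160.3 and 148 CPM under D, 98.0, 224 and 158 CPM under US + D and 143, 186 and 63.1 CPM under C. The US libraries overlapped with those of C, with a log2 fold change of 0.16 (SE 0.42, edgeR adjusted p = 0.9998). Of those below 0, Solyc02g070940 had the smallest p, with a log2 fold change of -0.26 (SE 0.39, edgeR adjusted p = 0.9998).

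When D was compared to C, edgeR again called 0 of 29 members, against 0.00451% of all genes. No member had an unadjusted p under 0.05 (11.1% of all genes did), and DESeq2 (1.79% of all genes) and limma voom (1.01%) called 0. The log2 fold change was above 0 for 23 members, at a median of 0.17, while 45.3% of all genes were above 0, at a median of -0.05. The libraries of D and C overlapped for all 29 members, against 19.5% of all genes that did not. The number above 0 rested on single libraries, most of all those of C. It was 9 of 29 (median -0.16) without C 3 and 28 of 29 (median 0.48) without C 2. Without D 2 it was 17 (median 0.06). The smallest p below 0 belonged to Solyc03g005770 (chromosome 3, 545348 to 546256, plus strand), with 1696, 1702 and 2385 CPM under US, 1490, 1825 and 1710 CPM under D, 1066, 3514 and 2187 CPM under US + D and 2273, 3176 and 1211 CPM under C. Its D libraries lay between the extremes of C, with a log2 fold change of -0.41 (SE 0.44, edgeR adjusted p = 0.771).

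The highest fold change of D vs. C was that of Solyc06g060340 (chromosome 6, 36000748 to 36003894, plus strand), with 720, 332 and 1434 CPM under US, 842, 2359 and 1091 CPM under D, 255, 2142 and 1070 CPM under US + D and 486, 1267 and 374 CPM under C. It averaged 1431 ± 814 CPM under D and 709 ± 487 CPM under C (SD, n = 3 each), with 1 C library above 2 of the D libraries. The log2 fold change of 1.01 (SE 0.78, interval -0.72 to 2.74) did not pass the test (edgeR adjusted p = 0.664). This locus was among those with the widest range, at 9.24-fold. In US + D vs. C, its log2 fold change was 0.70, and without US + D 2 it was -0.08.

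When US + D was compared to C, edgeR called 0 of 29 members and 0.00451% of all genes, with 0 members (4.88% of all genes) at an unadjusted p under 0.05 and 0 called by DESeq2 (0.609% of all genes) or limma voom (0.158%). The log2 fold change was above 0 for 24 members (45.3% of all genes), at a median of 0.16 against -0.03 over all genes. No member had libraries of US + D and C that did not overlap (7.64% of all genes). This direction also hung on single libraries. All 29 members were above 0 without C 2 and none was without US + D 2, where the median was -0.35. With limma voom, 10 of 29 were above 0, with a median of -0.09.

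**Figure D4:**
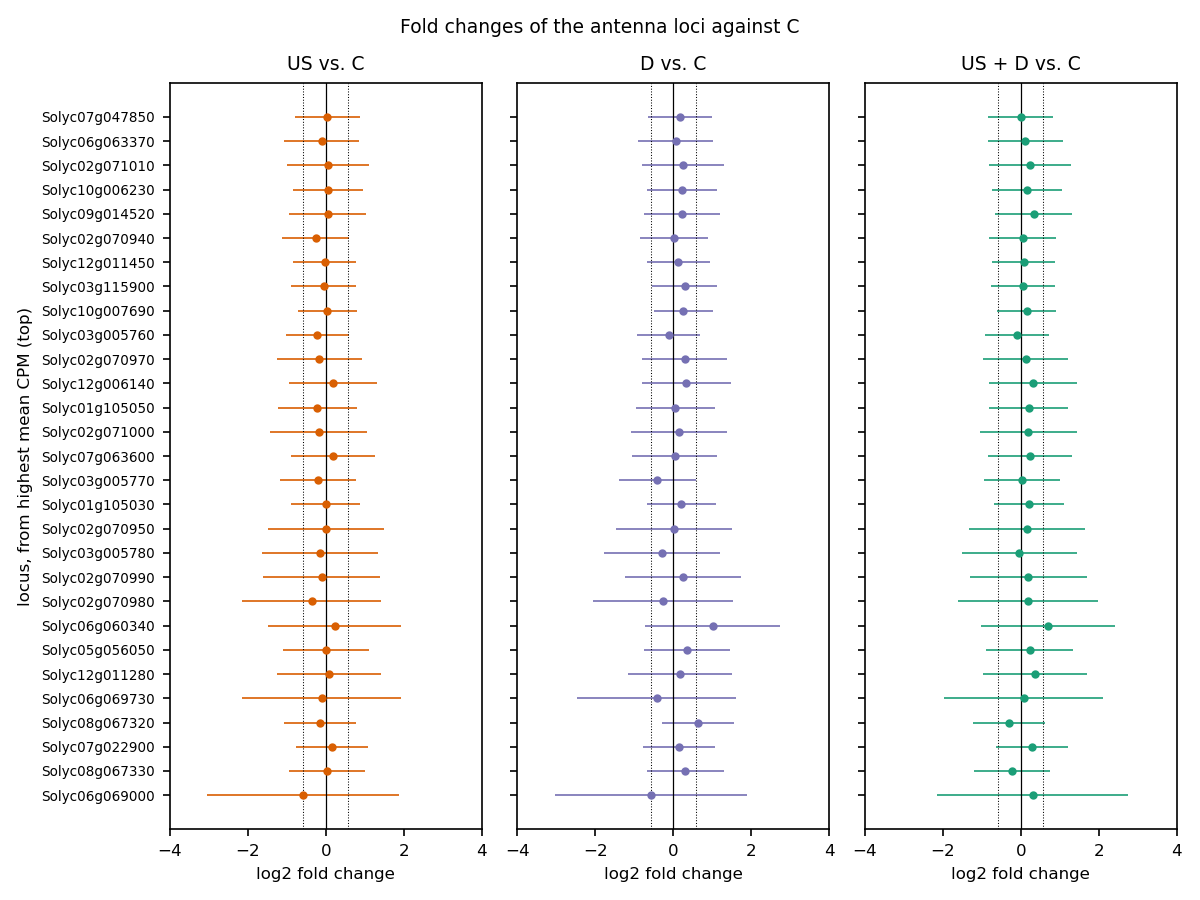
Log2 fold changes by edgeR (x axis) of the 29 loci, from the highest mean CPM at the top, in US vs. C, D vs. C and US + D vs. C. Points are estimates, bars 95% intervals and dotted lines the DEG threshold of 0.58 in either direction. The interval of every locus includes 0.

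Adding ultrasound to drought left 0 of 29 members called by edgeR in US + D vs. D (0.122% of all genes) and 0 by DESeq2 (3.33% of all genes). There were 16 members above 0 (52.9% of all genes) and 13 below, with a median of 0.03, the same as over all genes. At an unadjusted p under 0.05 stood 1 member, against 12.6% of all genes. The libraries of US + D and D overlapped for all 29 members (22.9% of all genes did not). Without US + D 2 no member was above 0 (median -0.49), and without US + D 1 there were 27 (median 0.35). With limma voom, 3 members were above 0.

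The exception was Solyc08g067320 (chromosome 8, 54487631 to 54487906, minus strand), the member whose level followed the rest of the family least closely. It had 122.7, 114 and 134 CPM under US, 224, 254 and 160 CPM under D, 64.6, 165 and 103 CPM under US + D and 156, 195 and 59.7 CPM under C. Its D libraries were all above those of US, while 1 US + D library lay just above the lowest of D. In US + D vs. D the log2 fold change was -0.94 (SE 0.42, interval -1.87 to -0.00996, unadjusted p = 0.0480 by edgeR), which did not pass after adjustment (adjusted p = 0.391 by edgeR and 0.280 by DESeq2). Limma voom with quality weights called it (log2 fold change -1.05, adjusted p = 0.0243), as it called 8.95% of all genes in this comparison. With edgeR and 1 library left out, the log2 fold change lay between -1.34 and -0.65 and the smallest adjusted p was 0.241. In D vs. C, the same locus had a log2 fold change of 0.63 (edgeR adjusted p = 0.603), the smallest p of the members in that comparison.

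The neighbour of this locus, Solyc08g067330 (54487963 to 54488259, minus strand), had 119, 94.8 and 113 CPM under US, 125, 157 and 113 CPM under D, 45.9, 146 and 78.9 CPM under US + D and 122, 149 and 46.6 CPM under C. Here the D libraries overlapped with those of the 3 other groups. Solyc08g067320 made up between 50.8% and 64.2% of the counts of this pair, whose spans differ.

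When D was compared to US, 0 of 29 members and 0% of all genes were called by edgeR, and 0 members by DESeq2 (3.1% of all genes) or limma voom (0.614%). With all 12 libraries in the fit, no member had an unadjusted p under 0.05 with edgeR (13% of all genes did). With only the D and US libraries in the fit, 1 member did, and the smallest edgeR adjusted p was 0.148. Without C 3, 1 member also did, and the smallest edgeR adjusted p was 0.3045. The shares over all genes in these fits are not given here. The log2 fold change was above 0 for 23 members (47.7% of all genes), with a median of 0.17 against -0.02 over all genes. The number above 0 lay between 16 (median 0.02, without US 2) and 27 (median 0.31, without US 3) when 1 library was left out. The 3 D libraries were above the 3 US libraries for 2 members, against 11.4% of all genes (23.2% of all genes did not overlap in either direction). For Solyc08g067320, the log2 fold change was 0.78 (SE 0.42, edgeR adjusted p = 0.472). The other was Solyc02g070970, with 3249, 3787 and 3994 CPM under D and 3198, 2232 and 2606 CPM under US. The lowest D library of that locus was barely above the highest of US, and the log2 fold change of 0.46 (SE 0.49) gave an edgeR adjusted p of 0.755.

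When US + D was compared to US, edgeR called 0 of 29 members and 0% of all genes. At an unadjusted p under 0.05 there were 0 members against 3.37% of all genes, and DESeq2 (0.0434% of all genes) and limma voom (0% of all genes) called 0 members. The log2 fold change was above 0 for 26 members (49.9% of all genes), with a median of 0.19 against 0.00, and the libraries overlapped for all of them (6.97% of all genes did not). Without US + D 2 this number was 0 (median -0.31) and without US + D 1 it was 29 (median 0.57). The smallest p above 0 was that of Solyc01g105050 (chromosome 1, 85639523 to 85640691, plus strand), with 2086, 1792 and 2599 CPM under US, 2044, 3128 and 2664 CPM under D, 1263, 4669 and 2758 CPM under US + D and 2459, 3564 and 1518 CPM under C. The US + D libraries lay on both sides of those of US, with a log2 fold change of 0.42 (SE 0.46, edgeR adjusted p = 0.9998), and it was -0.09 without US + D 2.

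The interaction, which is the difference between US + D vs. D and US vs. C, was above 0 for 16 members (54.1% of all genes) and below 0 for 13, at a median of 0.02 against 0.05 over all genes. EdgeR called 0 of 29 members and 0% of all genes. There were 0 members at an unadjusted p under 0.05 (6.42% of all genes), 0 were called by DESeq2 (0.477% of all genes) or limma voom (0.00451%), and the smallest edgeR adjusted p was 0.805. The number above 0 was 1 without US + D 2 and 26 without US + D 1.

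**Figure D5:**
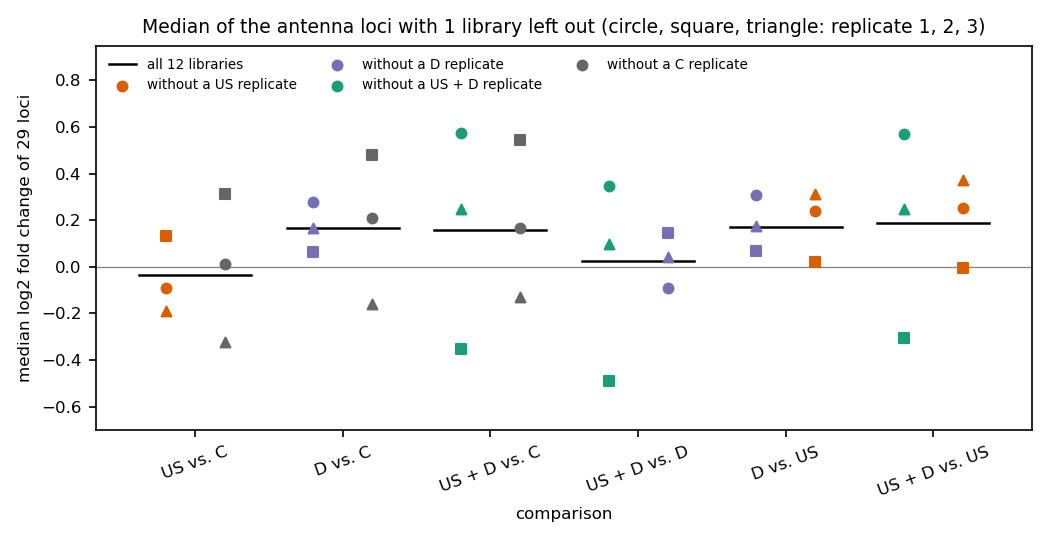
Median log2 fold change of the 29 loci by edgeR (y axis) in each comparison (x axis), with all 12 libraries (line) and with 1 library of the groups compared left out (points, coloured by the group of that library and shaped by its replicate). In US + D vs. C, the median lies between -0.35 without US + D 2 and 0.57 without US + D 1, and in the comparisons plotted it crosses 0 in all but D vs. US.

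In D vs. C, the 95% interval of the log2 fold change lay wholly within -1 to 1 for 4 of the 29 members, in US vs. C for 6 and in US + D vs. C for 7. For the other members the interval reached past a 2-fold difference in at least 1 direction, so a change of that size in that direction was not excluded by these libraries.

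Of the other photosystem genes, 7 are described in the study's supplementary lists, Solyc01g008510 in the list of DEGs and the other 6 in the lists of differentially methylated genes. The expression of Solyc01g008510 was thus the reason for its choice, and its direction is no independent evidence. Only 2 of the 7 passed the filter on low counts. Solyc01g008510, a photosystem II 5 kDa protein, had 14.1, 13.3 and 4.38 CPM under US, 41.3, 71.1 and 37.8 CPM under D, 3.58, 6.93 and 5.60 CPM under US + D and 14.7, 17.6 and 5.93 CPM under C. Its D libraries were all above those of the other groups, with a log2 fold change of 1.98 in D vs. C (SE 0.51, unadjusted p = 0.00264, edgeR adjusted p = 0.262). In US + D vs. C it went the other way, at -1.24 (SE 0.50, unadjusted p = 0.0310, edgeR adjusted p = 0.932), with overlapping libraries. Its highest library was D 2, as for 3 of the antenna loci, while 26 were highest in US + D 2. Solyc03g114930, a PsbP-like protein 1, was highest in US + D 2 (210.1 CPM) and lowest in C 3 (31.3 CPM), as 14 antenna loci were, with a log2 fold change of 0.32 in D vs. C (SE 0.60, edgeR adjusted p = 0.878). The other 5, annotated as D1, D2 and other subunits of the photosystems, were at or near 0 CPM in every library. By the study's methods, the libraries were made with poly-A enrichment. These values hold for the 5 loci only and do not give the level of those subunits in the leaf.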

How the data were processed

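Per the study's methods, fastp was used for trimming, Hisat2 for alignment to SL4.0 and FeatureCounts for counting over ITAG4.0 genes, all by the authors. The deposited values are raw counts, and tests were run on them as deposited. In R (4.3.3), genes were filtered by filterByExpr of edgeR (4.0.16), libraries were scaled by TMM (factors 0.874 to 1.10) and a quasi-likelihood model with 4 group means was fitted to the 12 libraries. The study's thresholds were kept. DESeq2 (1.42.0, the kind of test used in the study) and limma (3.58.1) voom with quality weights were alternatives, with other filters, scalings, a replicate block and each library left out. Scripts were tested on simulated data. Replicates are 3 biological replicates per group, by the study's methods.

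The rule for the loci uses gene family alone, but the family and the lists were chosen with earlier results of these data known. Loci with values in every library were those with the smallest p in each direction of each comparison and those with the highest mean CPM of a position group. Solyc02g070980, Solyc10g007690 and Solyc06g069730 were added after their values were seen. Groups by protein role, lists for chlorophyll synthesis and markers of leaf cell types had been planned by gene description and were not used here, since no source used here describes these loci. The RefSeq gene table (SLM_r2.1) shares 0 IDs with the members, so symbols were not assigned.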

Additional observations from a re-analysis of the deposited data

How the results depend on the processing

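Over 35 settings, 243 of 244 alternative counts of called members were 0, as with edgeR and all libraries. The other was 1 in US + D vs. D (Solyc08g067320, limma voom with quality weights, log2 fold change -1.05). With each library left out, the counts were 0 to 0. DESeq2 without each library was chosen after seeing the data. Of 476 alternative fold changes of single members, 17 had the other sign. In US vs. C, Solyc07g022900 was -0.044 with voom and -0.17 without C 3 to 0.50 without C 2, with -0.11 without US 3 (DESeq2 -0.18 without C 3 and -0.12 without US 3). Solyc02g070940 was -0.49 without C 3 and 0.032 without C 2 (DESeq2 0.020). In US + D vs. C, Solyc06g060340 was -0.079 without US + D 2 (DESeq2 -0.094) and 1.43 without C 2, and Solyc08g067320 was -0.70 without US + D 2 and 0.036 without C 2 (DESeq2 0.048). In US + D vs. D, Solyc03g005770 was -0.041 without US + D 2 (DESeq2 -0.043) and 0.78 without US + D 1. In US + D vs. US, Solyc01g105050 was -0.085 without US + D 2 (DESeq2 -0.088) and 0.81 without US + D 1, and Solyc08g067330 was -0.78 without US + D 2 and 0.084 without US + D 1 (DESeq2 0.074). The cause of these changes was not tested. Deviations of log2 CPM from the group mean were correlated between libraries over all tested genes, not over the members alone. Libraries with the same replicate number did not deviate together throughout (9 of 18 pairs had r over 0.1, between -0.386 and 0.791). Pairs with different numbers had r between -0.664 and 0.583. C 2, D 2 and US + D 2, with 28 or 29 members above their mean, had r over all tested genes of 0.323 (C and D), 0.507 (D and US + D) and 0.791 (C and US + D). US 2, with 0 members above, had r of -0.386, -0.136 and -0.28 with C 2, D 2 and US + D 2. With the replicate number as a block, 0 members were called in all 7 comparisons, and the number above 0 was 20 of 29 in US vs. C, 10 in US + D vs. D and 7 for the interaction. Solyc06g069000 had 25 to 868 counts per library, and Solyc02g071030, which lies within another gene, had 0. The other members had at least 1694 counts in every library (Solyc08g067330 in US + D 1). Whether depth or the way reads were counted limits the first of these loci or the other was not tested.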
